A study of Mus musculus with 472 samples.

Results

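F-RGCs are a class of mouse retinal ganglion cells, the output neurons of the retina, that is named after the transcription factor Foxp2. The cells described here were chosen by their measured levels of 3 such factors. Levels are in CPM, the counts of a gene when all gene counts of its cell are scaled to 1000000. A cell was taken when Foxp2 reached 10 CPM, or when Foxp1 and Irx4 both did. The rule found 52 cells and left 420, a share of 11% (exact 95% interval 8.34% to 14.2%). Of the 52 cells, 36 were taken by Foxp2 ("Foxp2 cells") and 16 by Foxp1 and Irx4 but without Foxp2 ("Foxp1/Irx4 cells"). The 420 other cells served for comparison. All were single ganglion cells of C57BL/6J mice aged 7 to 9 weeks, with no treatment or genetic change named in the labels. Each was patched in a flat-mounted retina for recording under blue and green light, and its aspirated content was amplified with Smart-seq2, a protocol that reads full-length transcripts and carries no molecular identifiers. Light responses and morphology are not analysed here.

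Foxp1 and Foxp2 are forkhead repressors that bind DNA as dimers, also with each other. Irx4 belongs to the Iroquois homeobox family, which patterns tissues and marks neuron subtypes in the retina. In the mouse retina Foxp2 labels small and medium-sized F-RGCs with ON or OFF responses, and Foxp1 is known to part the small F-mini types from the larger F-midi types. Ganglion cells as a class carry Pou4f (Brn3) factors, Rbpms and the glutamate transporter Slc17a6, and subtypes add further factors such as Tbr1, Eomes or Satb1.

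No label ties a cell to an animal, so every group here counts as a single sample. No difference was tested for that reason, and the intervals cover counting error only. A gene counted as positive where it had at least 10 CPM. The median of the summed gene counts was 5982213 in Foxp2 cells, 5107703 in Foxp1/Irx4 cells and 5171096 in other cells. All 52 cells had at least 3 of 12 pan-ganglion-cell genes, against 98.8% of the other cells. Slc17a6 was positive in 94.4% of Foxp2 cells, 100% of Foxp1/Irx4 cells and 91.7% of other cells, and Rbpms in 94.4%, 93.8% and 89.3%. Ganglion cell genes were thus present in nearly every cell. The F-RGC label cannot be checked apart from the rule, because the markers given for it are the genes of the rule. Coch, looked at after its values were seen, was positive in 44.4% of Foxp2 cells (27.9% to 61.9%), 31.3% of Foxp1/Irx4 cells (11% to 58.7%) and 39.5% of other cells (34.8% to 44.4%).

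Of 17 cells with both Foxp1 and Irx4, 1 also had Foxp2, which was positive in 7.63% of all cells. Among the 36 Foxp2 cells, 9 had Foxp1 without Irx4, 8 had Irx4 without Foxp1 and 18 had neither. Across all cells Foxp1 and Irx4 met in 17 cells, where the product of their shares within runs gives 14.9. Foxp2 met Foxp1 in 10 cells against 7.73 and Irx4 in 9 against 6.49. The Foxp1 and Irx4 pair thus occurred about as often as their separate shares would give, and the 16 cells are called by these genes rather than F-RGCs in what follows.

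**Figure D1:**
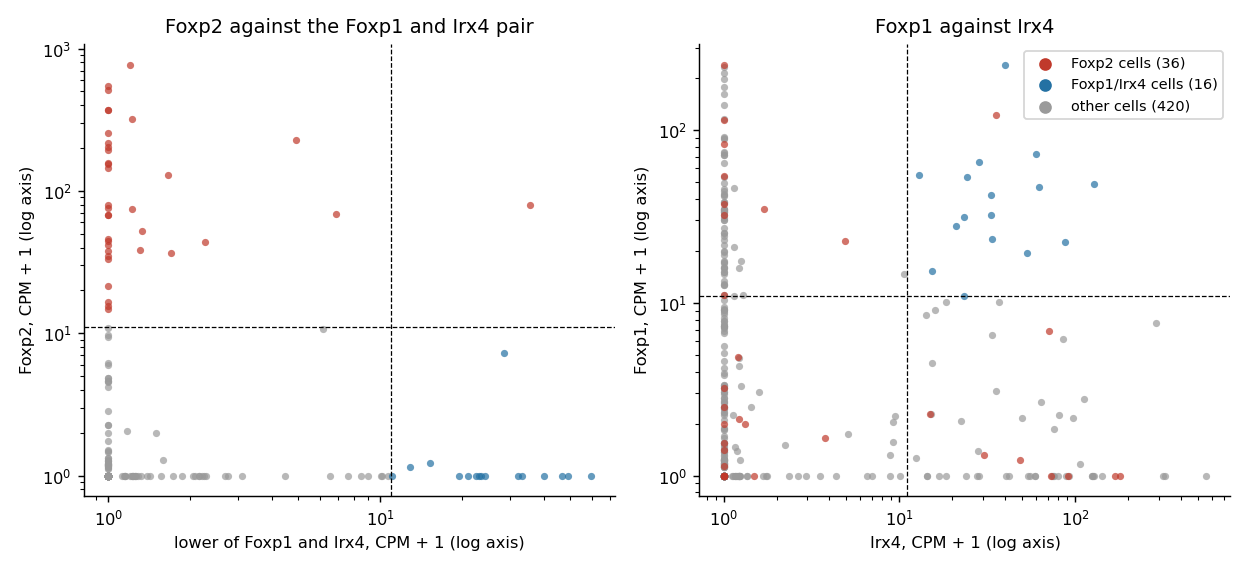
Left, Foxp2 against the lower of Foxp1 and Irx4 in each cell; right, Foxp1 against Irx4; all axes are CPM + 1 on a log scale, dashed lines mark 10 CPM, and colours mark Foxp2 cells (36), Foxp1/Irx4 cells (16) and other cells (420). In the left panel 1 red cell lies past both lines; Foxp1/Irx4 cells lie below 10 CPM of Foxp2 by the rule itself.

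Foxp2 (chromosome 6, 14901349 to 15441977 on mm10, 1-based as all positions here) had a median of 73.9 CPM in Foxp2 cells and reached 772 CPM. The cells just inside the threshold had 13.8, 14.6 and 15.5 CPM and those just outside 9.86, 9.78 and 8.74 CPM, while 380 of the 420 other cells were at 0. Another 16 of the other cells had Foxp2 from 1 to 10 CPM. The whole rule took 65 cells at 5 CPM and 24 at 50 CPM, so membership moved with the threshold. It also moved with the totals: at 10 CPM, 61 cells were taken when totals left out ribosomal RNA and mitochondrial genes. Ribosomal RNA loci held a median of 17.8% of gene counts in the 52 cells and 17.1% in other cells, and at most 84.9% and 97.7%. Foxp1 (chromosome 6, 98925338 to 99522721) was positive in 27.8% of Foxp2 cells and 15.5% of other cells, with a median of 36.1 CPM in the 16 Foxp1/Irx4 cells. Irx4 (chromosome 13, 73260479 to 73269608) was positive in 25% of Foxp2 cells and 11.2% of other cells, with a median of 32.2 CPM in the Foxp1/Irx4 cells. For this pair the lower of both values was 10.0, 11.9 and 14.3 CPM in the cells just inside and 9.68, 9.18 and 9.09 CPM just outside. The values just inside lay closer to the threshold than those of Foxp2 did. The lower of both genes tends to lie nearer a threshold than a single gene does, so the 2 groups are not compared alike here.

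The cells came from all 5 sets of library names, called runs A to E here. Libraries of A, D and E share a code within the name, and those of B and C the start of a library number. That these sets are sequencing runs is inferred from the names alone. They made up 6.41% of run A (15 cells), 16.3% of B (16 of 98), 16.1% of C (10 of 62), 8.47% of D (5 of 59) and 31.6% of E (6 of 19). Run A held 10 Foxp2 cells, B 13, C 7, and D and E 3 each. The share was lowest in run A, the run with the most cells.

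The number of positive genes per cell differed between the groups. The median was 5731.5 in Foxp2 cells, 6598.5 in Foxp1/Irx4 cells and 5474 in other cells, and the lowest cells had 1121 and 5085 in the first 2 groups. Markers of other retinal cells also differed between the groups, and not all in the same order. At least 3 of 8 rod markers were positive in 80.6% of Foxp2 cells, 75% of Foxp1/Irx4 cells and 64.8% of other cells, with a summed level of 2.59 to 63749 CPM, 44.3 to 42785 CPM and 0 to 242117 CPM. For 7 bipolar markers, Isl1 left off, the shares were 50%, 56.3% and 28.3% (0.134 to 1694, 13.9 to 866 and 0 to 2529 CPM), and for 8 amacrine markers 52.8%, 75% and 40.7% (37.9 to 2514, 207.98 to 1650 and 0 to 3833 CPM). Every marker of these 3 lists was positive in some cell of each group. For 6 microglia markers the counts were 0 of 36 and 3 of 16 cells, against 1.90% of other cells, and Cx3cr1, P2ry12, C1qa and Tmem119 were positive in no Foxp2 cell. At least 3 of 8 Müller glia markers were positive in 80.6%, 100% and 78.6%, and 3 of 6 horizontal cell markers in 52.8%, 87.5% and 56.9%. The Foxp1/Irx4 cells were thus the group with the most genes and with the highest shares for bipolar, amacrine, Müller, horizontal and microglia markers. The part of these differences in the results below was not tested. For most genes named below, the difference from other cells of the same run and tertile of positive genes is given as the difference within strata.

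**Figure D2:**
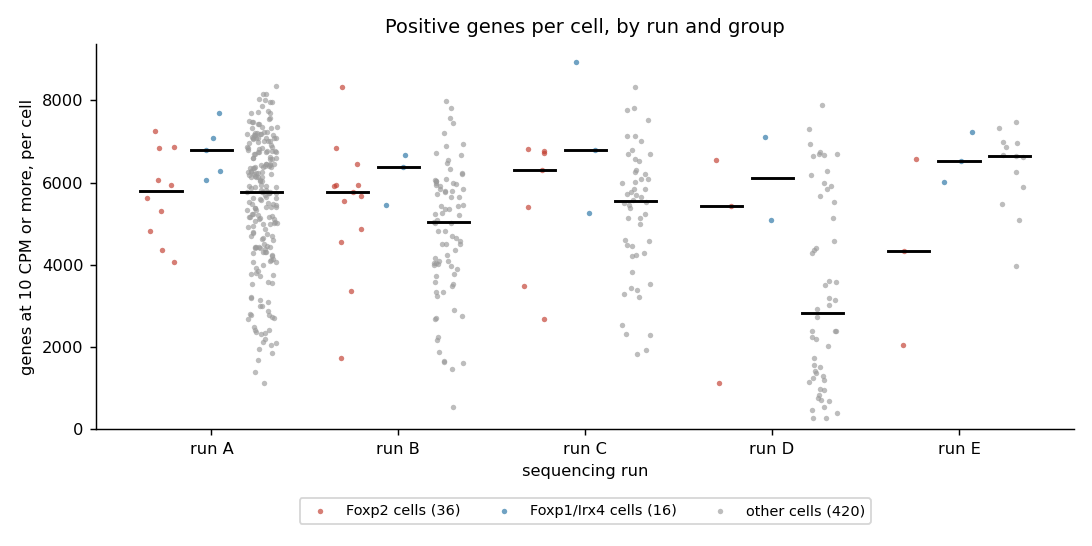
Number of genes at 10 CPM or more in each cell, by run as inferred from library names, for Foxp2 cells, Foxp1/Irx4 cells and other cells. Points are cells and bars are medians. Over all runs the median was 5731.5 in Foxp2 cells, 6598.5 in Foxp1/Irx4 cells and 5474 in other cells.

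Across genes, the 52 cells were compared with the other cells by 2 sizes together: a share of positive cells at least 20 percentage points apart and a mean log2(CPM + 1) at least 1 apart in the same direction. Of 12917 genes positive in at least 5% of cells, 1.93% were higher in the 52 cells and 3 genes (0.0232%) lower, namely Bcan, Gm17922 and Cdh12. Of these, Bcan and Gm17922 are named after their values were seen. The sign was the same in all 5 runs for 46.6% of the higher genes and for none of the 3 lower genes. Without run A, 6.56% of genes were higher and 0 lower. The rule sets no error rate, and 1 cell is 1.92 points of a share in 52 cells, 2.78 in 36 and 6.25 in 16. The median difference over all genes was 0.26 on the log2 scale, so differences are read against it. Within runs and tertiles of positive genes that median was 0.0085. There 43 genes passed as higher, which are 17.3% of those higher over all cells, and 29 passed as lower.

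The 2 groups of cells differed in this. In Foxp2 cells 1.15% of genes were higher and 44 genes (0.341%) lower than in other cells, with a median difference of 0.11 over all genes. In Foxp1/Irx4 cells 2538 genes (19.6%) were higher and 10 (0.0774%) lower, and the median difference was 0.62. In this group 4 of 16 cells make up 25 points of a share, and these counts are a description of the 16 cells. How many genes other sets of 16 cells would pass was not tested. Set against Foxp1/Irx4 cells, Foxp2 cells had 55 genes (0.426%) higher and 2031 (15.7%) lower. The genes higher in both groups numbered 72, which is 48.6% of the list of Foxp2 cells and 2.84% of the list of Foxp1/Irx4 cells; both comparisons share the other cells. Within runs and tertiles 63 genes were higher in Foxp2 cells and 573 in Foxp1/Irx4 cells, and 0.890% and 1.15% of genes were lower. Without run A the higher shares were 4.14% in Foxp2 cells and 29.5% in Foxp1/Irx4 cells. The mean level lay above that of other cells for 59.8% of genes in Foxp2 cells and for 84.1% in Foxp1/Irx4 cells. Compared with cells of the same run and tertile, the median difference was -0.06 in Foxp2 cells and 0.14 in Foxp1/Irx4 cells.

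**Figure D3:**
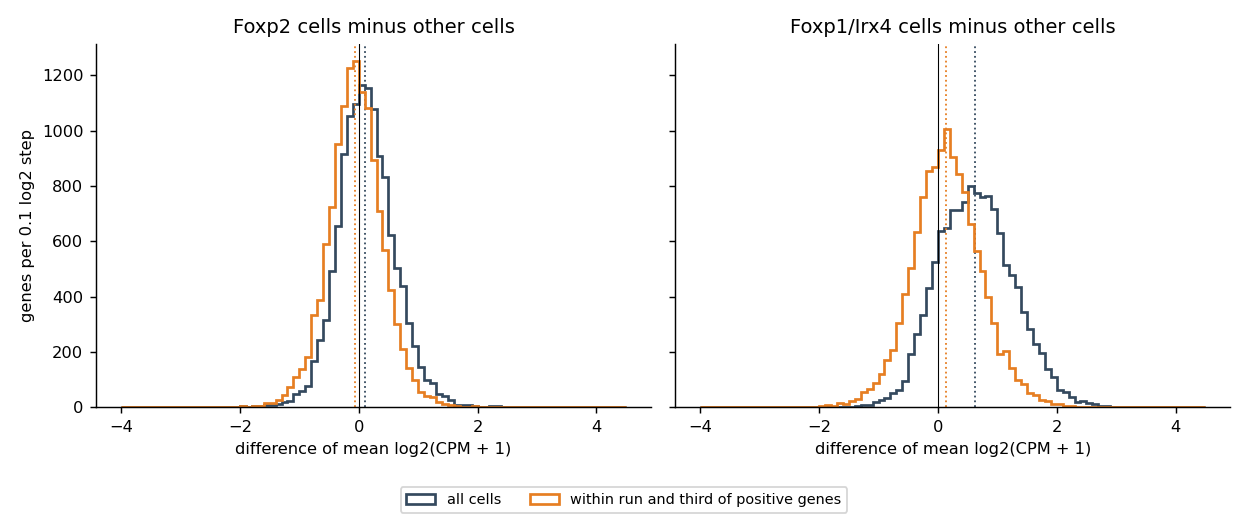
Differences of mean log2(CPM + 1) for 12917 genes, Foxp2 cells minus other cells (left) and Foxp1/Irx4 cells minus other cells (right), over all cells (dark) and within run and tertile of positive genes (orange); dotted lines are medians. The medians over all cells are 0.11 and 0.62, and within strata -0.06 and 0.14.

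For Foxp2 cells the exact intervals of the 2 shares lay apart for 77% of the higher genes and 33 of the 44 lower ones, and 57 and 30 genes of these also passed within runs and tertiles. Foxp2 itself is among the 57. The higher and lower genes were chosen by a gap of at least 20 points between the same shares in the same cells. Intervals that lie apart follow in part from that choice and are no separate check on these genes. The share of all genes with intervals apart was not tested. The genes described below come from the lists, from the largest differences, or are marked as chosen after their values were seen.

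Among the receptor and channel lists, few genes passed in Foxp2 cells, and those described here are given by role. Gria1, an AMPA receptor subunit, was positive in 41.7% of Foxp2 cells (25.5% to 59.2%), 31.3% of Foxp1/Irx4 cells and 16.7% of other cells (13.2% to 20.6%), and its mean level was 1.89 log2 higher in Foxp2 cells. Grm8, an inhibitory presynaptic receptor, was positive in 11.1%, 43.8% and 31.9% of Foxp2, Foxp1/Irx4 and other cells, with a difference of -1.32 log2 in Foxp2 cells. Within strata the differences were 1.46 for Gria1 and -1.35 for Grm8. The glutamate receptor genes Gria1 and Grm8 thus differed in opposite directions, and within strata Grm8 passed both sizes and Gria1 did not.

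Among 9 sodium channel genes Scn3b alone passed, as higher in both groups. Of all genes, 1.15% were higher in Foxp2 cells and 19.6% in Foxp1/Irx4 cells. Scn3b, which encodes a beta subunit that tunes channel gating (chromosome 9, 40269217 to 40291618), ran from 0 to 391.1 CPM with a median of 57.7 in Foxp2 cells, from 0 to 255.8 CPM with a median of 65.3 in Foxp1/Irx4 cells, and from 0 to 857 CPM with a median of 0.488 in other cells. The share of positive cells was 72.2% in Foxp2 cells (54.8% to 85.8%), 87.5% in Foxp1/Irx4 cells (61.7% to 98.4%) and 39.8% in other cells (35% to 44.6%). After Foxp2 it had the largest difference of all genes with the same sign in all runs, 2.31 log2 in the 52 cells, and within strata 1.68 in Foxp2 cells. In Foxp2 cells the share was 70% in run A, 69.2% in B and 71.4% in C, against 37%, 46.3% and 55.8% in other cells of these runs, so the gap was narrowest in C. The beta subunit gene Scn4b did not pass and was positive in 25%, 31.3% and 38.6% of Foxp2, Foxp1/Irx4 and other cells.

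Of 29 potassium channel genes in the list, Kcnd2 was higher in Foxp2 cells and none lower, against 1.15% and 0.341% of all genes. Kcnh1, a potassium channel gene outside the list and chosen after its values were seen, was lower in Foxp2 cells by both sizes, with a difference of -1.33 log2 and -1.37 within strata. Kcnd2 carries A-type current (chromosome 6, 21215503 to 21729805). Positive cells made up 55.6% of Foxp2 cells (38.1% to 72.1%), 43.8% of Foxp1/Irx4 cells (19.8% to 70.1%) and 25.7% of other cells (21.6% to 30.2%). The difference in Foxp2 cells was 1.79 log2, 1.75 within strata, and held its sign in the 3 runs, with 50%, 53.8% and 85.7% of Foxp2 cells against 29.7%, 17.1% and 30.8% of other cells in A, B and C.

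Calcium-binding and calcium-sensor proteins had 3 of 14 genes higher in Foxp2 cells and none lower, against 1.15% and 0.341% of all genes, with a median difference of 1.02 log2 against 0.11 over all genes. Hpcal1, a neuronal calcium sensor, ran from 0 to 611 CPM with a median of 134.5 in Foxp2 cells, from 0 to 602 CPM with a median of 78.5 in Foxp1/Irx4 cells, and from 0 to 1028 CPM with a median of 18.04 in other cells. It was positive in 80.6% of Foxp2 cells (64% to 91.8%), 87.5% of Foxp1/Irx4 cells and 51.4% of other cells (46.5% to 56.3%), a difference of 2.21 log2 in Foxp2 cells. Necab2, an EF-hand protein, was positive in 58.3%, 62.5% and 30%, and Ncald, neurocalcin delta, in 83.3%, 81.3% and 57.1%. All 3 were higher in both groups of cells than in other cells. Within strata the differences in Foxp2 cells were 1.99 for Hpcal1, 1.59 for Necab2 and 1.46 for Ncald, and Hpcal1 and Necab2 passed both sizes there while Ncald did not. In the Foxp1/Irx4 cells Hpca, Calb1 and Necab1 passed as well, 6 of 14 against 19.6% of all genes. Calb2 (calretinin) was positive in 97.2% of Foxp2 cells, 100% of Foxp1/Irx4 cells and 91% of other cells, so a share 20 points higher was out of reach. Its level ran from 2.45 to 9454 CPM with a median of 1326 in Foxp2 cells, from 22.02 to 3002 CPM with a median of 656 in Foxp1/Irx4 cells, and from 0 to 8699 CPM with a median of 666 in other cells, a difference of 1.49 log2 in Foxp2 cells and 1.39 within strata.

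Several genes outside the lists stood with these, and Cpne9, Synpr, Kif13a and Nfatc2 were chosen after their values were seen. Cpne9, a calcium-dependent phospholipid-binding copine, was positive in 77.8% of Foxp2 cells (60.8% to 89.9%), 56.3% of Foxp1/Irx4 cells (29.9% to 80.2%) and 41.4% of other cells (36.7% to 46.3%), and had the largest difference in Foxp2 cells after Foxp2, 2.45 log2. Synpr, a synaptic vesicle membrane protein, was positive in 80.6%, 62.5% and 48.1%, a difference of 2.40 in Foxp2 cells. Kif13a, a kinesin motor, was positive in 55.6%, 25% and 21.7%, with differences of 1.96 in Foxp2 cells and 0.11 in Foxp1/Irx4 cells. Nfatc2, a calcium-regulated transcription factor, was positive in 55.6%, 50% and 30.7%. Within strata Nfatc2 differed by 1.81 in Foxp2 cells. Cpne9, Synpr and Kif13a differed there by 1.94, 1.63 and 1.6 in Foxp2 cells and by 0.16, 0.03 and -0.26 in Foxp1/Irx4 cells.

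Timp2, an inhibitor of matrix metalloproteinases, and Cd83, a membrane protein best known from immune cells, were higher in both groups. Timp2 was positive in 58.3% of Foxp2 cells (40.8% to 74.5%), 68.8% of Foxp1/Irx4 cells (41.3% to 89%) and 28.6% of other cells (24.3% to 33.2%). Cd83 was positive in 50% of Foxp2 cells (32.9% to 67.1%), 50% of Foxp1/Irx4 cells (24.7% to 75.3%) and 19.8% of other cells (16.1% to 23.9%). In the 52 cells the differences were 2.26 and 2.11 log2, in the same direction in all 5 runs, and within strata they were 1.74 and 1.85. Further genes higher in the 52 cells in all 5 runs were Fgf13, a modulator of sodium channels (2.25), Lzts2 (1.94), Pdxk, the pyridoxal kinase (1.89), the sodium pump subunit gene Atp1b2 (1.87), Rtf2 (1.86), the importin gene Ipo5 (1.82), the presynaptic SNARE gene Stx1a (1.80), the tubulin gene Tubb2b (1.79), Hpca (1.74), Palm2 (1.74), Ccng1 (1.74) and Nudt11 (1.69). Of these 12 genes, Lzts2, Tubb2b, Palm2, Ccng1 and Nudt11 also passed both sizes in the 52 cells within strata, and the other 7 did not.

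Neuropeptide genes varied within the Foxp2 cells. Tac1, which encodes substance P, was positive in 36.1% of Foxp2 cells (20.8% to 53.8%), 31.3% of Foxp1/Irx4 cells (11% to 58.7%) and 10.5% of other cells (7.72% to 13.8%). It was the single gene of 9 measured that was higher in Foxp2 cells (1.11 log2 within strata), against 1.15% of all genes. By pattern it was positive in 2 of 9 cells with Foxp1, 1 of 8 with Irx4 and 9 of 18 with neither. Gal (galanin) was positive in 2 of 9, 1 of 8 and 7 of 18, in 0 of 16 Foxp1/Irx4 cells, where 3 cells would be 18.8% and the exact interval reaches 20.6%, and in 18.1% of other cells. Both peptides were thus seen most often in the Foxp2 cells that lacked Foxp1 and Irx4, in small numbers. Cartpt, a peptide gene of direction-selective ganglion cells, was positive in 80.6% of Foxp2 cells (64% to 91.8%), 87.5% of Foxp1/Irx4 cells (61.7% to 98.4%) and 56% of other cells (51.1% to 60.8%). It passed the level rule in Foxp1/Irx4 cells, with a difference of 1.99 log2, and not in Foxp2 cells, with 0.67. Within strata these differences were 2.16 in Foxp1/Irx4 cells and 0.86 in Foxp2 cells.

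**Figure D4:**
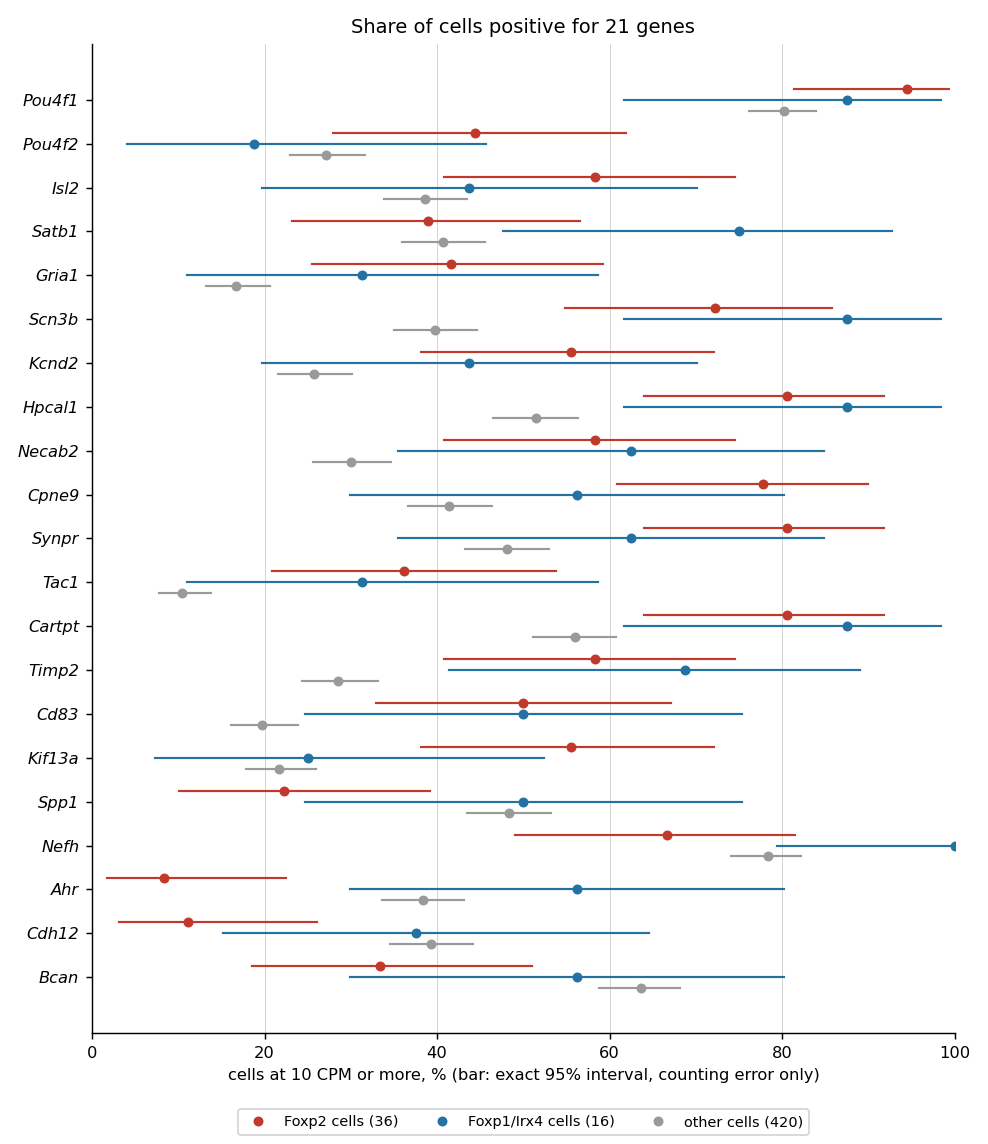
Share of cells positive for 21 genes in Foxp2 cells (red, top of each row), Foxp1/Irx4 cells (blue) and other cells (grey), with exact 95% intervals. Hpcal1 and Scn3b lie to the right of other cells in both groups, Kif13a in Foxp2 cells, and Spp1, Ahr, Cdh12 and Bcan lie to the left of them in Foxp2 cells.

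The gene with the largest deficit in Foxp2 cells was Spp1 (osteopontin), a marker of alpha ganglion cells (chromosome 5, 104435118 to 104441050). It ran from 0 to 1402 CPM with a median of 0.640 in Foxp2 cells, from 0 to 148.3 CPM with a median of 22.3 in Foxp1/Irx4 cells, and from 0 to 7132 CPM with a median of 4.46 in other cells. The share of positive cells was 22.2% in Foxp2 cells (10.1% to 39.2%), 50% in Foxp1/Irx4 cells (24.7% to 75.3%) and 48.3% in other cells (43.5% to 53.2%), a difference of -2.74 log2 in Foxp2 cells. By run the shares were 40%, 15.4% and 14.3% of Foxp2 cells against 58.9%, 37.8% and 21.2% of other cells in A, B and C. The gap was smallest in run C, and within strata the difference was -1.93. Spp1 was the only one of 7 alpha genes below the other cells by both sizes, where 0.341% of all genes were lower in Foxp2 cells. Nefh, the heavy neurofilament, was positive in 66.7% of Foxp2 cells, 100% of Foxp1/Irx4 cells and 78.3% of other cells, and Pvalb in 77.8%, 68.8% and 76.2%. Spp1 and Kcng4, a pair of alpha genes, met in 3 of 36 Foxp2 cells (8.33%, exact interval 1.75% to 22.5%), 4 of 16 Foxp1/Irx4 cells (25%, 7.27% to 52.4%) and 23.6% of other cells (19.6% to 27.9%). The intervals overlap.

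Other genes lower in Foxp2 cells included some of the cell surface and the matrix. Of 11 measured cadherins Cdh12 alone passed in Foxp2 cells, against 0.341% of all genes lower there. It was positive in 11.1% of Foxp2 cells (3.11% to 26.1%), 37.5% of Foxp1/Irx4 cells (15.2% to 64.6%) and 39.3% of other cells (34.6% to 44.1%), a difference of -1.63 log2 in Foxp2 cells. Bcan (brevican), a proteoglycan of the neural matrix, was positive in 33.3%, 56.3% and 63.6%, with a difference of -1.84. Chosen after their values were seen, Nrg1 (neuregulin) was positive in 41.7%, 81.3% and 66.4%, Nlgn1 (neuroligin) in 36.1%, 43.8% and 57.4%, the ephrin receptor gene Epha4 in 22.2%, 56.3% and 47.1%, the aryl hydrocarbon receptor gene Ahr in 8.33%, 56.3% and 38.3%, and the transcription factor gene Sox11 in 16.7%, 56.3% and 41% of Foxp2, Foxp1/Irx4 and other cells. These 5 were lower in Foxp2 cells in each of the 3 runs compared. Their differences were -1.76, -1.62, -1.24, -1.46 and -1.63 log2. Within strata Nrg1 differed by -1.79, Nlgn1 by -1.69, Epha4 by -1.45, Ahr by -1.42 and Sox11 by -1.77 in Foxp2 cells, and Cdh12 by -1.61 and Bcan by -1.66.

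Ganglion cell factors were carried by most of the 52 cells. Pou4f1 (Brn3a) was positive in 94.4% of Foxp2 cells (81.3% to 99.3%), 87.5% of Foxp1/Irx4 cells (61.7% to 98.4%) and 80.2% of other cells (76.1% to 83.9%). Pou4f2 (Brn3b) was positive in 44.4% (27.9% to 61.9%), 18.8% (4.05% to 45.6%) and 27.1% (22.9% to 31.7%), and Pou4f3 (Brn3c) in 22.2%, 43.8% and 23.8%. None of the 52 cells had Pou4f2 or Pou4f3 without Pou4f1, against 26 of 420 other cells. The exact interval of 0 of 52 reaches 6.85%, so such cells are not shown to be absent. Pou4f2 leaned to the Foxp2 cells and Pou4f3 to the Foxp1/Irx4 cells, but the intervals overlap and neither passed the size rule against other cells. Between both groups Pou4f2 was higher in Foxp2 cells by both sizes. Isl2, a LIM-homeobox factor of ganglion cells, was positive in 58.3%, 43.8% and 38.6%. None of 10 measured Pou and homeobox genes passed in Foxp2 cells, where 1.15% of all genes were higher and 0.341% lower. In Foxp1/Irx4 cells 3 of the 10 were higher, Onecut2 and Zfhx3 among them, against 19.6% of all genes.

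Satb1, a chromatin organiser that instructs direction-selective types, was positive in 38.9% of Foxp2 cells (23.1% to 56.5%), 75% of Foxp1/Irx4 cells (47.6% to 92.7%) and 40.7% of other cells (36% to 45.6%). Within strata the difference in Foxp1/Irx4 cells was 1.53 log2. The Foxp2 cells were close to the other cells in this gene.

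Factors that mark other ganglion cell classes were seen in a minority of Foxp2 cells. None of Tbr1, Eomes, Opn4, Neurod2 and Irx3 was positive in 66.7% of Foxp2 cells (49% to 81.4%), 37.5% of Foxp1/Irx4 cells (15.2% to 64.6%) and 51.7% of other cells (46.8% to 56.5%). Tbr1, the T-box factor of T-RGCs, was positive in 8.33%, 18.8% and 17.4%, and the melanopsin gene Opn4 in 13.9%, 12.5% and 10.7%. The intervals of Foxp2 cells and other cells overlap for all of these shares. Eomes, a factor of melanopsin cells, was positive in 2 of 9 Foxp2 cells with Foxp1, 3 of 8 with Irx4 and 0 of 18 with neither. Zic1, a zinc-finger factor, was rare, in 16.7% of Foxp2 cells (6.37% to 32.8%), 18.8% of Foxp1/Irx4 cells (4.05% to 45.6%) and 2.14% of other cells (0.984% to 4.03%). Its difference of 0.69 log2 in Foxp2 cells is under the size rule, and after thinning every cell to 1000000 gene counts the shares were 11.4%, 18.8% and 2.42%.

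Among the Iroquois genes, Irx2, which lies in the same cluster on chromosome 13 as Irx4, followed Irx4 within the Foxp2 cells. It was positive in 5 of 8 Foxp2 cells with Irx4, 1 of 9 with Foxp1 and 1 of 18 with neither, and in 31.3% of Foxp1/Irx4 cells and 11.2% of other cells. Irx3 was positive in 8.33% of Foxp2 cells, 37.5% of Foxp1/Irx4 cells and 15% of other cells, and Irx1 in 0 of 36, 0 of 16 and 0.714%. In the Foxp1/Irx4 cells 6 of 8 measured Foxp and Iroquois genes were higher, Foxp1 and Irx4 by the rule and Foxp4, Irx2, Irx3 and Irx6 besides, where 19.6% of all genes were higher.

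**Figure D5:**
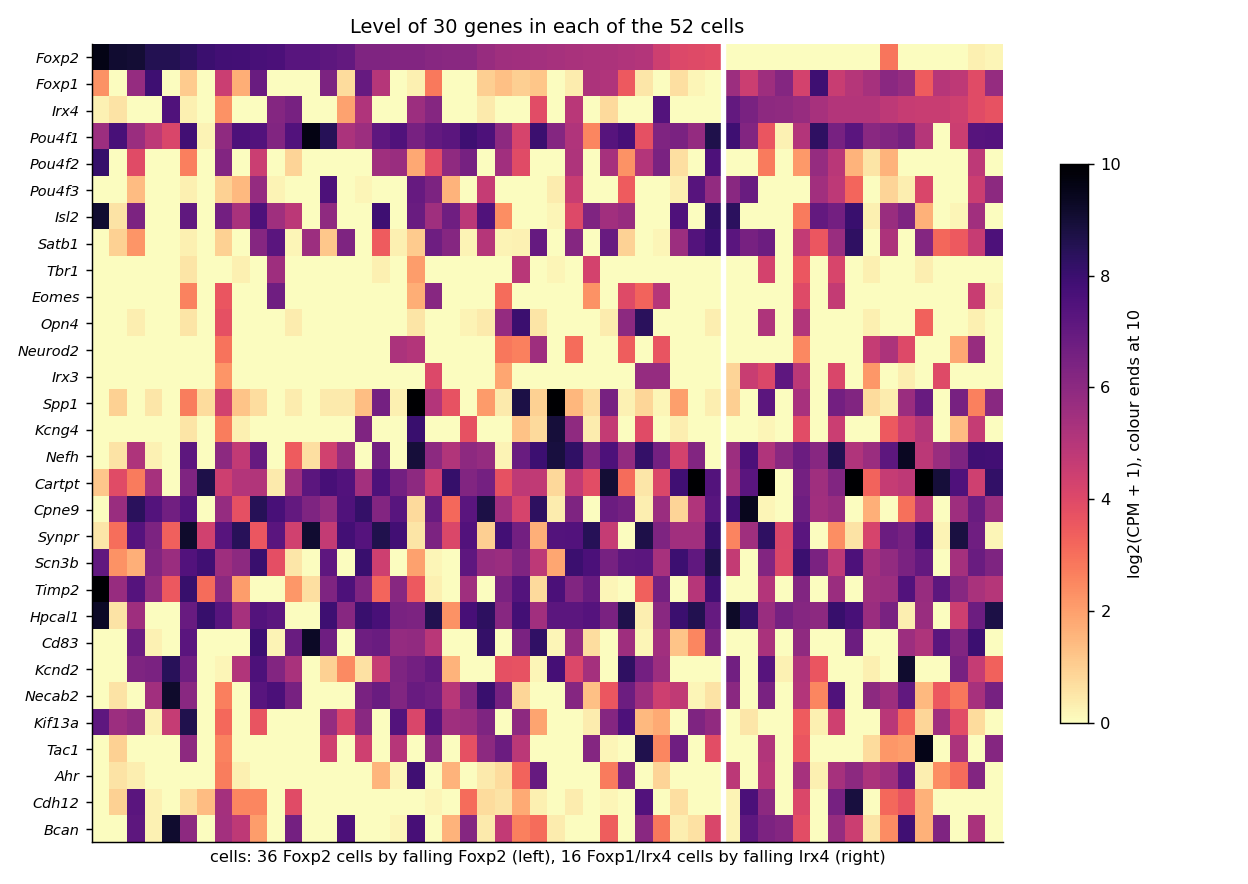
Level of 30 genes, as log2(CPM + 1), in each of the 52 cells, with 36 Foxp2 cells on the left ordered by falling Foxp2 and 16 Foxp1/Irx4 cells on the right ordered by falling Irx4; dark is high. Pou4f1 is seen in nearly all cells, Isl2 and Satb1 vary from cell to cell, and no listed gene apart from Foxp2 is positive in every Foxp2 cell.

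The Foxp1/Irx4 cells also differed from other cells in genes with no part in the rule. Lypd6, which modulates nicotinic receptors, ran from 0 to 593 CPM with a median of 1.13 in Foxp2 cells, from 0 to 553 CPM with a median of 133.4 in Foxp1/Irx4 cells, and from 0 to 740 CPM with a median of 17.8 in other cells. It was positive in 41.7% of Foxp2 cells, 93.8% of Foxp1/Irx4 cells (69.8% to 99.8%) and 53.1% of other cells (48.2% to 58%), and the protocadherin gene Pcdh8 in 33.3%, 68.8% and 38.8%. Adora1, the adenosine A1 receptor gene, and the forkhead factor gene Foxo3 were chosen after their values were seen. Both were positive in all 16 Foxp1/Irx4 cells, against 83.3% and 55.6% of Foxp2 cells and 63.6% and 51.9% of other cells. Within strata the differences in Foxp1/Irx4 cells were 2.25 for Lypd6, 2.03 for Pcdh8, 2.41 for Adora1 and 1.98 for Foxo3, and -0.76, -0.31, 0.82 and -0.11 in Foxp2 cells. Of the amacrine and bipolar marker lists, 6 of 8 and 5 of 7 genes were higher in these cells too, and none in Foxp2 cells, against 19.6% and 1.15% of all genes.

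Between cells, levels over the 12917 genes correlated with a median r of 0.41 among Foxp2 cells, 0.48 among Foxp1/Irx4 cells and 0.45 between both groups, against 0.40 among other cells, 0.40 between Foxp2 and other cells and 0.44 between Foxp1/Irx4 and other cells. Pairs of cells share run, depth and the genes that every ganglion cell carries, so these values are a description. The highest value between any 2 of the 52 cells was 0.66.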

How the data were processed

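Single ganglion cells were read with Smart-seq2 and 150 bp paired reads, per the labels' protocols, and aligned with STAR 2.7.0 to mm10, per the submitters' processing notes. No source used here names the quantification tool or its annotation. The deposited values are estimated counts per gene, of which 1.36% were not whole, and were rounded to whole numbers. They were scaled to CPM over 55450 genes, without 92 ERCC spike-in RNAs. All gene identifiers were found in GENCODE release 21. The 52 cells, 36 gene lists and size rule were chosen with earlier results of these data known. Named genes are those of the lists, the 20 largest differences each way with the same sign in every run with at least 5 of the cells, and the 10 largest between Foxp2 and Foxp1/Irx4 cells. Differences use log2(CPM + 1). The 95% intervals of shares are exact (Clopper-Pearson); a share of 0 is also given its limit at 3 counts. Without molecular identifiers, reads are not independent molecules. Use of strand in counting is not stated, so overlapping and antisense genes may share reads. No doublet caller was run on singly picked cells. Alternatives covered thresholds, filters, totals, depth, cells, runs and, after seeing the data, strata of run and positive genes (3 tertiles in each run). The computation of the size calls was checked on simulated data, which gives no error rate for these cells. Python 3.11.15, numpy 2.4.6, pandas 2.3.3, scipy 1.17.1 and matplotlib 3.10.9 were used. A few genes are not reported here.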

Additional observations from a re-analysis of the deposited data

Results flagged for a closer look

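The ERCC spike-in RNAs, which lie outside every comparison above, were seen at 8.61% of all counts in 1 of the 52 cells (194866 of 2262224 counts), where a count of 0 would limit the share to 0.000133%. This Foxp2 cell of run E had 546 CPM of Foxp2 and 2062 positive genes. The median share was 0.534% in Foxp2 cells, 0.336% in Foxp1/Irx4 cells and 0.794% in other cells, and it exceeded 5% in 2 of the 52 cells and 29 of the other cells. No source used here gives the amount of spike-in added.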

How the results depend on the processing

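Values are percentages of the genes tested that were higher and lower, for the 52 cells (1.93% and 0.0232%), Foxp2 cells (1.15% and 0.341%) and Foxp1/Irx4 cells (19.6% and 0.0774%). At 100 CPM as positive, 0.513% and 0.125% passed in the 52 cells and 4.39% were higher in Foxp1/Irx4 cells; at 1 CPM, 0.194% were lower in Foxp2 cells. In cells with at least 3000 positive genes the values were 1.12% and 0.188% in the 52 cells, 0.798% lower in Foxp2 cells, and 9.01% and 0.505% in Foxp1/Irx4 cells. Without cells that had 3 bipolar, amacrine or cone markers, which leaves 13 Foxp2 and 4 Foxp1/Irx4 cells, they were 10.3% and 0.594%, 10.1% and 1.15%, and 6.10% lower in Foxp1/Irx4 cells. The lower share of the 52 cells was 0.0680% with totals free of ribosomal RNA and mitochondrial genes, 0.0386% after thinning and 0.0855% with the rule at 20 CPM. Means of within-run differences used only runs with at least 5 cells of the group. They gave 0.0% lower in the 52 cells over all 5 runs, and 2.49% higher in Foxp2 cells over runs A, B and C. For Foxp1/Irx4 cells run A alone was left, with 5 such cells, so the 2.77% lower there is no mean over runs. Taking cells by Foxp2 alone gave 1.15% and 0.341%, and by Foxp1 with Irx4 alone 17.9% and 0.0848%.

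After seeing the data, strata of run and positive genes gave 0.333% and 0.225% in the 52 cells, 0.488% and 0.890% in Foxp2 cells, and 4.44% and 1.15% in Foxp1/Irx4 cells. Taking off the median difference of all genes gave 0.465% and 0.201%, 0.534% lower in Foxp2 cells, and 3.68% and 2.25% in Foxp1/Irx4 cells. Leaving out each run in turn gave 1.49% to 6.56% higher and 0.0% to 0.169% lower in the 52 cells, 1.13% to 4.14% and 0.194% to 0.835% in Foxp2 cells, and 16.2% to 29.5% and 0.124% to 0.272% in Foxp1/Irx4 cells. Without run A the higher shares were the highest of each range; the number of cells was 36 to 47. The rule at 50 CPM took 24 cells, and at 10 CPM with totals free of ribosomal RNA and mitochondrial genes it took 61. Of 86 named genes under 11 settings, none changed sign and 23 of the values moved by more than the spread between runs. The cause of these shifts was not tested. No paired analysis was possible because the cells carry no shared replicate number and no test was made.

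The size rule sets no error rate, and how its counts move with the number of cells was not tested. Shares in 36 and 16 cells are coarse, and depth limits genes near 10 CPM.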
